A study of Mus musculus with 4 samples.

Results

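The genes described here encode subunits of the mitochondrial respiratory chain and of ATP synthase. They were taken by name: a gene belonged to the set if a probe set with that single gene symbol on the array was called Ndufa, Ndufb, Ndufc, Ndufs, Ndufv, Uqcr, Cox4, Cox5, Cox6, Cox7, Cox8 or Atp5, without the assembly factors called Ndufaf. The rule used no measured value, and it gave 78 genes with 160 probe sets, of 18193 genes and 34945 probe sets with a single symbol. Complex I had 34 genes, complex III 8, complex IV 19 and complex V, the ATP synthase, 17. Ndufa4 and its relative Ndufa4l2 carry complex I names but are counted here with complex IV, where Ndufa4 is known to sit. Cox7a2l is also counted there, although it is known as a factor that joins complexes III and IV rather than as a subunit.

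The study asked how the absence of gut microbes alters transcripts of the intestinal epithelium. Epithelial cells were cut by laser from sections of the ileum or the proximal colon of C57BL/6 mice that were either colonised (wild type) or germ-free, with no other genetic change or treatment in the labels. Each of the 4 groups (wild type colon, germ-free colon, wild type ileum, germ-free ileum) pooled about 4000 cells from each of 4 mice into 1 RNA sample of about 16000 cells and had 1 array. The age and sex of the mice are not in the labels, and the labels mention a hematoxylin stain for the germ-free samples alone, so staining and germ-free status cannot be told apart. With a single pooled array per group there were no replicates and no test was possible: every difference below compares particular arrays, and none has an error from mice.

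The respiratory chain passes electrons from NADH and succinate to oxygen through complexes I to IV in the inner mitochondrial membrane, and complexes I, III and IV pump protons as they do so. ATP synthase lets the protons flow back and makes ATP. Most subunits are encoded in the nucleus and a few in mitochondrial DNA, and only nuclear genes are described here. In the colon, epithelial cells are known to burn butyrate made by bacteria, while enterocytes of the small intestine use glutamine and other fuels from food.

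Promoter sequence is shown for 6 of the members that differed between ileum and colon by at least 0.32 on the log2 scale (a higher value 25% above the lower one), on the same side, with microbes and without. Cox7a1 and Cox7c, which also have a window and did so, are not printed, as an isoform known from muscle and a gene read by a dim probe set. Each line gives the 150 bases just before the gene's start in RefSeq (build GRCm38.p6), on the strand of the gene. Ndufa4 lies at chr6:11907451-11907600, minus strand. Atp5b lies at chr10:128083157-128083306, plus strand. Ndufs4 lies at chr13:114388095-114388244, minus strand. Uqcrc1 lies at chr9:108936498-108936647, plus strand. Ndufa6 lies at chr15:82354292-82354441, minus strand. Ndufv3 lies at chr17:31519965-31520114, plus strand. The first 4 were higher in ileum and the other two in colon. Capitals mark the letters of the NRF1 motif.
Ndufa4: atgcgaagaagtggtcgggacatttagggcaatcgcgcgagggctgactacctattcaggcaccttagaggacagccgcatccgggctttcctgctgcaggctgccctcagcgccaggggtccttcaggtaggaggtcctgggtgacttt
Atp5b: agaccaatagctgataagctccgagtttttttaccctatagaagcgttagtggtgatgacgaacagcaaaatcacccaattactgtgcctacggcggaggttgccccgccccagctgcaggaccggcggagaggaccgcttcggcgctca
Ndufs4: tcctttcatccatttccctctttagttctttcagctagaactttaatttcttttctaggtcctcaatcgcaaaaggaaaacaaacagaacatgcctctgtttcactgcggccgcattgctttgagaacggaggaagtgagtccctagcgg
Uqcrc1: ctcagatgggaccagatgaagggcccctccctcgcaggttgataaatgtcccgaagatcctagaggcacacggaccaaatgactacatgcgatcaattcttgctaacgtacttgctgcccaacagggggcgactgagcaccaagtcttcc
Ndufa6: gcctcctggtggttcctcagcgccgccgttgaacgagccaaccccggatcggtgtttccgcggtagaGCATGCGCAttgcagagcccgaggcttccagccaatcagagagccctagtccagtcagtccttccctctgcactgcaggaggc
Ndufv3: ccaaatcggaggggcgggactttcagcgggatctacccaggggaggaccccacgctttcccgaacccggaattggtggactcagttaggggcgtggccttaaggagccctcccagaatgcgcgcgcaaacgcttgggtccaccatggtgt

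A search of the longer windows, from 250 bases before to 50 after each start, covered 69 windows of the 64 members found in the RefSeq table. NRF1, the ETS factor GABP, YY1 and the estrogen-related receptors are known regulators of respiratory genes. The NRF1 motif, TGCGCANGC read on both strands, was in 11 of the 69 windows (15.9%) and in 4.16% of all 32851 windows. The ETS motif CCGGAAG was in 15 (21.7%, against 8.86% of all windows). The YY1 motif AAGATGGC was in 9 (13%, against 2.75%), and the estrogen-related receptor motif AAGGTCA in 7 (10.1%, against 4.72%). Among the 6 genes shown, Ndufa6 held the NRF1 letters upstream of its start and again after it, Uqcrc1 held them after its start, and Ndufs4 held the YY1 letters after its start. Ndufa4, Atp5b and Ndufv3, as well as Cox7a1 and Cox7c, held none of the 4 motifs in this window, which says only that these letters are not there.

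Values below are quantile-normalized intensities on a linear scale, and differences are on the log2 scale. Members past a difference of 0.32, where the brighter array reads at least 25% above the dimmer, are counted, and so are those past 2-fold. A gene is represented by its brightest probe set, and an intensity under the floor of 62.4, the median of all probe sets, was set to the floor. Levels of different genes are not compared, because each probe set has its own response. All 10 epithelial markers were above the floor on every array. The summed intensity of the ileal enterocyte markers was 14477 and 21384 on the colon arrays and 39988 and 42639 on the ileum arrays. That of the colonocyte markers was 46520 and 37870 against 10552 and 10132, so both sums went with the labelled regions. Single markers did not all do so. Between the germ-free arrays, 4 of 7 measured colonocyte markers were lower in ileum by 0.32 or more and 2 higher. The higher ones were Aqp8 (76.4 in colon, 130 in ileum) and Slc37a2 (38.7 and 133). The ileal marker Fabp6 read 767 and 6008 on the wild type and germ-free colon arrays, and 16920 and 18190 in ileum. The control probe sets for 18S ribosomal RNA read lower without microbes, with a log2 difference of -1.23 in colon and -0.93 in ileum. The 5-prime probe sets of Gapdh, against its 3-prime ones, were lower on the germ-free array at -0.48 in colon and -1.10 in ileum, and those of Actb at -0.12 and -1.20. The part of RNA quality in the differences below was not tested.

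Most respiratory genes gave a clear signal. Of the 78, 72 were above the floor on all 4 arrays and 70 were bright, which here means above the 75th percentile of intensities (259) on at least 1. Below the floor on all arrays were Cox6a2, Cox6b2 and Cox7b2, isoforms known from heart and muscle or from testis, and the complex I subunits Ndufb1 and Ndufb4. For Ndufb4 that holds for its own probe set alone: a probe set shared with its near copies Ndufb4b and Ndufb4c read 4327 and 4104 in colon and 3291 and 3401 in ileum. Cox8b, a heart and muscle isoform, was above the floor on the colon germ-free array alone, at 63.5.

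Without microbes, few respiratory genes of the colon were far from their wild type value after quantile normalization. Of 73 measured members, 12 were lower by 0.32 or more without microbes and 1 was higher. Over all 11746 measured genes, 22.8% were that much lower and 18.2% higher. By brightest probe sets no member was 2-fold apart, where 3.23% of all genes were lower and 1.29% higher. A dimmer bright probe set of Ndufab1 was past 2-fold, at 336 and 153 (-1.13). The brightest one of that gene gave -0.10 and another bright one 0.08. The members' median difference was -0.05, against -0.01 for all genes. The middle 50% of members spanned 0.20, against 0.52 for all genes and 0.47 for bright ones. Of the members' 160 probe sets, 30 and 28 were in the top 1% of the wild type and germ-free colon arrays. On the ileum arrays 26 and 30 were. The part of such brightness in the members' small spread and counts, here and in the differences below, was not tested. With median scaling the count of lower members was 43 of 72, against 3815 of 11710 genes, so the members' share was then the larger one. Fewer cells of a type and less RNA per cell cannot be told apart in such samples.

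In the ileum fewer members than in colon were past 0.32, which held for all genes too. Of 72 measured members, 3 were higher by 0.32 or more without microbes and 1 lower, where all 11750 genes gave 11.6% and 10.9%. None was past 2-fold, against 0.23% of genes higher and 0.698% lower. The median was 0.07 (0.03 for all genes), and 52 of the 72 members were above 0, against 6440 of the 11750 genes. The middle 50% spanned 0.19 for the members, 0.33 for all genes and 0.30 for bright ones. The count above 0 depended on the scaling. Members below 0 were 27.8% with quantile normalization, 50.0% with the deposited values and 33.3% with median scaling.

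**Figure D1:**
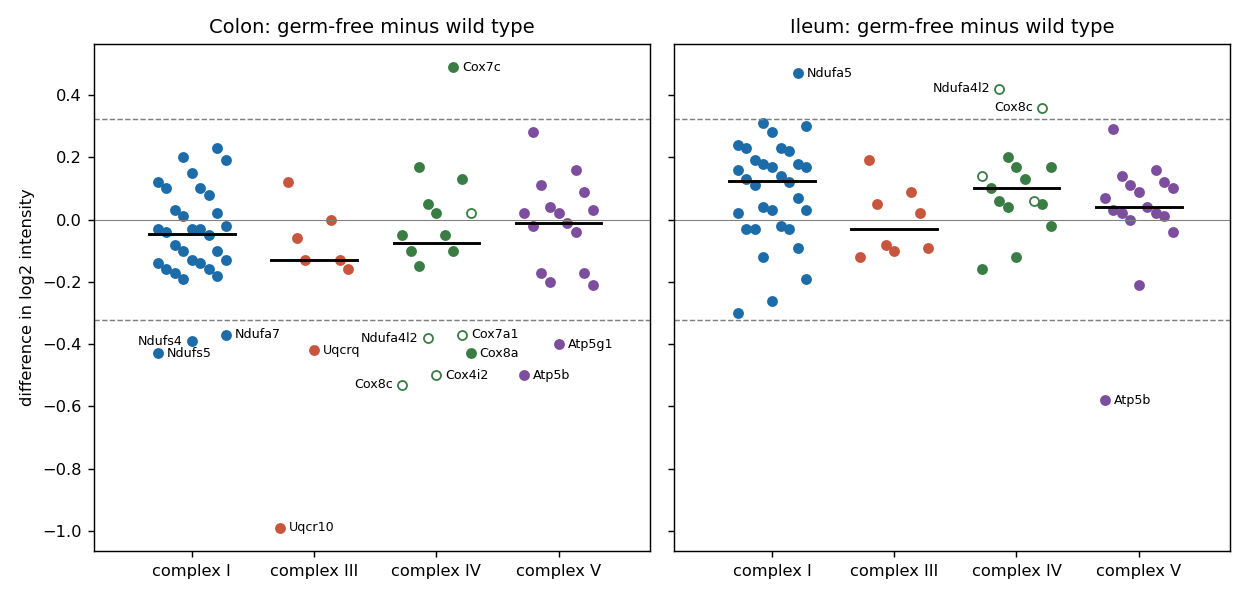
Difference in log2 intensity between the germ-free and the wild type array for each member gene, in colon (left) and ileum (right), by complex. Points are genes, open points tissue-restricted isoforms, black bars medians, and dashed lines a difference of 0.32; most genes lie inside the dashed lines, 12 lie under them in colon, and Atp5b is the one gene under them in both regions.

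Complex I takes electrons from NADH. Its 6 measured core subunits, which hold the redox centres, stayed inside 0.32 in both regions by their brightest probe sets. Ndufv1, the subunit that binds NADH, read 4046 in the wild type colon, 4130 in the germ-free colon, 3631 in the wild type ileum and 3697 in the germ-free ileum. Ndufv2 read 6298, 6192, 5241 and 5993 in that order, which is kept from here on. A dimmer bright probe set of Ndufv1 read 1490, 1146, 1563 and 1130, past 0.32 lower without microbes in both regions (-0.38 and -0.47). The remaining probe set of Ndufv1 gave -0.09 in colon and 0.11 in ileum. Ndufs1, the large iron-sulfur subunit, read 1369, 1201, 1369 and 1116, and was furthest down of complex I on the germ-free ileum array (-0.30).

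Of the 26 measured accessory subunits, 3 were past 0.32 lower in colon, where 22.8% of all genes were. In ileum 1 was past 0.32 higher, where 11.6% of all genes were. Ndufs5, a small subunit of the membrane arm, read 716, 530, 655 and 642, lower at -0.43 on the germ-free colon array and at -0.03 in ileum. That holds for its own probe set alone. A brighter probe set, shared with Ndufs5-ps, read 1347, 1482, 1452 and 1307 (0.14 in colon and -0.15 in ileum). Ndufs4, which stabilises the NADH-binding module, read 1576, 1206, 2029 and 1695 (-0.39 and -0.26). Its other bright probe set read 891, 917, 1112 and 1260, with no lower value on the germ-free arrays, and with the mean of all its probe sets the colon difference of Ndufs4 turned to 0.31.

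Ndufa7, another accessory subunit, read 2456, 1899, 2103 and 2604 (-0.37 in colon, 0.31 in ileum). Ndufa5 read 4170, 4778, 3432 and 4744, higher by 0.47 (1.38-fold) on the germ-free ileum array and by 0.20 in colon. Its second bright probe set gave 0.21 in ileum and 0.09 in colon. For Ndufa5 the ileum wild type array was the low one, and the 3 others lay between 4170 and 4778. Furthest up in colon was Ndufc1, at 5221 and 6108 (0.23). The median of complex I was -0.05 in colon and 0.13 in ileum.

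Complex III passes electrons to cytochrome c. Uqcr10, a small subunit, had the largest germ-free difference of all members by brightest probe sets. It read 1797, 906, 1290 and 1470, lower at -0.99 (1.98-fold) in colon and higher by 0.19 in ileum. Here the colon germ-free array was the low one. Its other bright probe sets read 604, 439, 370 and 323 and 556, 424, 420 and 462, so that they were lower in colon too, at -0.46 and -0.39, and gave -0.19 and 0.14 in ileum.

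Uqcrq, another small subunit, read 3131, 2344, 3248 and 3365, and its colon germ-free value was again the lowest (-0.42). The core proteins Uqcrc1 (-0.13 in colon, -0.12 in ileum) and Uqcrc2 (0.12 and 0.09) and the Rieske iron-sulfur protein Uqcrfs1 (-0.13 and -0.08) were inside 0.32. Uqcrb, a small subunit, gave 0.00 and -0.09. Its probe set was the brightest of all on both colon arrays. Quantile normalization therefore gave it 18778 on both, which fixed its colon difference at 0.00. The other bright probe set of Uqcrb read 4716, 6129, 4338 and 4013 (0.38 in colon and -0.11 in ileum).

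Complex IV hands the electrons to oxygen. Of its 10 common subunits, 8 were inside 0.32 in colon and all 10 in ileum. Cox4i1, the subunit that most tissues use, read 11493, 10349, 10075 and 9301 (-0.15 in colon and -0.12 in ileum), and Cox5b read 11594, 11725, 10628 and 11404 (0.02 and 0.10). Cox8a read 1137, 845, 932 and 955, lower at -0.43 in colon, where its second bright probe set gave -0.70. Cox7a2l gave -0.10 in colon by its brightest probe set, and -0.44 and -0.35 by its other bright ones.

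Cox7c was the single member past 0.32 higher in colon. Its usable probe set read 189, 266, 143 and 160 (0.49 in colon, 0.17 in ileum). With the deposited values the same probe set read 187, 306, 137 and 149.5. It was a dim probe set, above the 75th percentile of intensities on the colon germ-free array alone.

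The tissue-restricted isoforms of complex IV are known mainly from other organs. Of 5 measured in colon, 4 were lower by 0.32 or more without microbes, where 22.8% of all genes were. Of 4 in ileum, 2 were higher, where 11.6% of all genes were. These are few genes, and Cox4i2 and Ndufa4l2 were read by dim probe sets, under the 75th percentile (259) on every array. Cox7a1, known from heart and skeletal muscle, read 848, 655, 1205 and 1329 (-0.37 and 0.14), while its common counterpart Cox7a2 read 10991, 10598, 9853 and 10297 (-0.05 and 0.06). Cox4i2, known from lung and induced by low oxygen, read 166, 117, 165 and 172 (-0.50 and 0.06).

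Cox8c, known from testis, read 347, 241, 550 and 706, lower at -0.53 in colon and higher by 0.36 in ileum. Ndufa4l2, induced by low oxygen and known from pericytes, read 114, 87.4, 92.8 and 124 (-0.38 and 0.42). These were the 2 of 72 members (all genes: 5.31%) that were past 0.32 in opposite directions in the regions. Muscle and pericyte markers also differed between the arrays. The 10 smooth muscle markers summed to 6732, 8407, 12527 and 9469, with 4, 4, 8 and 4 above the floor, and Myh11 and Cnn1 below it on all arrays.

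The 8 pericyte markers summed to 956, 886, 3678 and 1251, with 3, 3, 5 and 5 above the floor, and Notch3, Higd1b and Mcam below it on all. Both sums were highest on the ileum wild type array, but the pericyte markers differed among themselves. Rgs5 (523, 271, 2632 and 193) and Abcc9 (52.2, 50.7, 145 and 70.4) were highest there. Kcnj8 was near even in ileum (247 and 242). Pdgfrb (180, 422, 452 and 569) and Cspg4 (95.8, 73.9, 123 and 130) were highest on the ileum germ-free array. Cox7a1, Cox8c and Ndufa4l2 were also highest on that array. The part of muscle cells and pericytes in the isoforms' values was not tested.

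ATP synthase has a catalytic F1 head, a turning ring of c subunits and a peripheral stalk that holds the head still. Atp5b encodes the catalytic beta subunit. By brightest probe sets it was the 1 of 72 members lower by 0.32 or more without microbes in both regions. Of all genes, 3.09% had that pattern. Atp5b read 3813, 2692, 5558 and 3722, which is lower at -0.50 (1.42-fold) in colon and at -0.58 (1.49-fold) in ileum. No member was that much higher on both germ-free arrays, where 2.70% of all genes were. Atp5b has a single probe set, so no second one could be read. The 5-prime probe sets of Gapdh and Actb, given above, were also lower on both germ-free arrays, and their part in the value of Atp5b was not tested.

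By their brightest probe sets, the other measured subunits of the F1 head stayed inside 0.32 in both regions. Atp5a1, the alpha subunit, read 8899, 9620, 8548 and 8808 (0.11 in colon and 0.04 in ileum). Another of its probe sets read 4179, 3691, 5585 and 4737, lower on both germ-free arrays at -0.18 and -0.24 and higher in ileum, as Atp5b was. Atp5c1, the gamma subunit that turns inside the head, read 6790, 5904, 8330 and 7184 (-0.20 and -0.21). Its other, much dimmer probe set read 310, 327, 243 and 190 (0.08 and -0.36).

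Among the 3 genes for the c ring, Atp5g1 read 1439, 1088, 1357 and 1374 (-0.40 in colon, 0.02 in ileum). Atp5g2 and Atp5g3, which encode the same mature c subunit, were at -0.02 and 0.09 in colon. The 4 stalk genes lay between -0.21 (Atp5o) and 0.16 (Atp5pb) in colon and between -0.04 (Atp5j) and 0.14 (Atp5h) in ileum. Of the small membrane subunits, Atp5md was furthest up in colon (5923 and 7214, 0.28) and Atp5l in ileum (787 and 963, 0.29).

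The germ-free differences of the 2 regions were weakly related across the members. Across 72 members, which are not independent of each other and share arrays and normalization, Pearson's r between the colon and the ileum difference was 0.121 and Spearman's rho 0.128. The sign was the same for 36 of 72. Over 7497 bright genes r was 0.162.

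**Figure D2:**
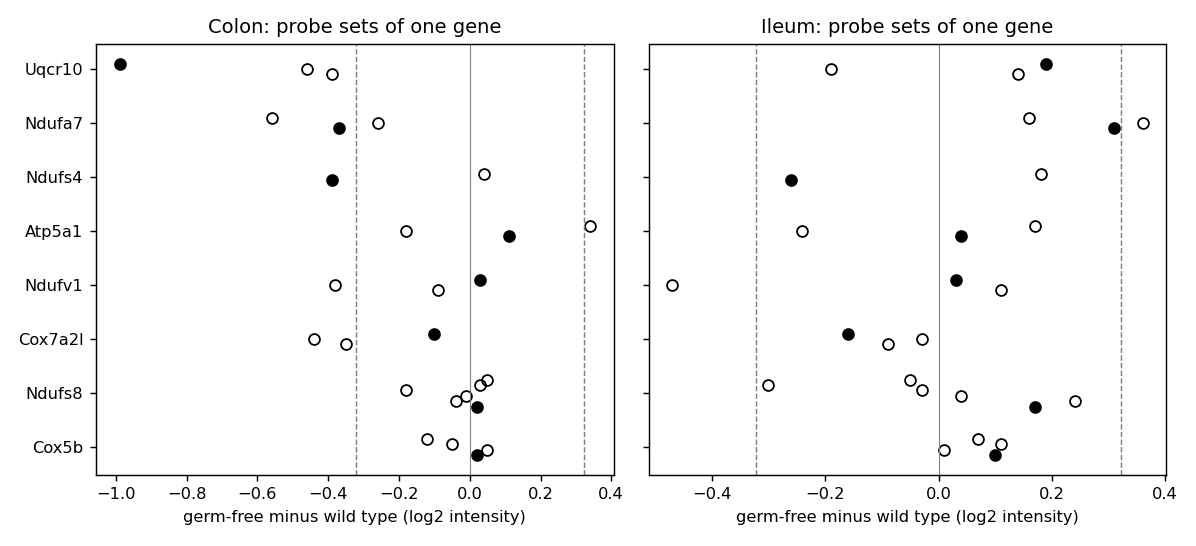
Difference in log2 intensity between the germ-free and the wild type array for the bright probe sets of 8 member genes, in colon (left) and ileum (right). Each point is a probe set, filled for the brightest one of a gene, and dashed lines mark a difference of 0.32; the probe sets of Cox5b lie close together, whereas those of Uqcr10 spread from -0.99 to -0.39 in colon and those of Ndufv1 from -0.38 to 0.03.

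Probe sets of the same gene gave a measure of the technical error within a pair of arrays. In the 38 members with 2 or more bright probe sets, the brightest pair differed with an SD of 0.16 in colon and 0.12 in ileum for the germ-free difference, against 0.29 and 0.20 over 2217 genes. The pair went the same way for 21 of 38 members in colon and 27 in ileum. A member's difference of about 0.16 in colon or 0.12 in ileum is of the size of that spread. Both probe sets read the same amplified sample on the same array, so error from capture and amplification cannot be fully read from that spread. How far mice differ cannot be read from it either.

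The size of the members' shift in colon depended on how the arrays were scaled, and it was below 0 under each of the 3 scalings. With the quantile-normalized values, the median over members was -0.05 and that over all genes -0.01. With the values as deposited, they were -0.11 and 0.09. With each array shifted to a common median of its brighter probe sets, they were -0.36 and -0.14, and 43 members were lower by 0.32 or more.

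Relative to all genes, the members were lower in colon germ-free at -0.04, -0.20 and -0.22 under the 3 scalings. In ileum, the members' germ-free median was 0.07, 0.00 and 0.04. The ileum median thus stayed near 0 under each scaling, while the colon median did not.

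**Figure D3:**
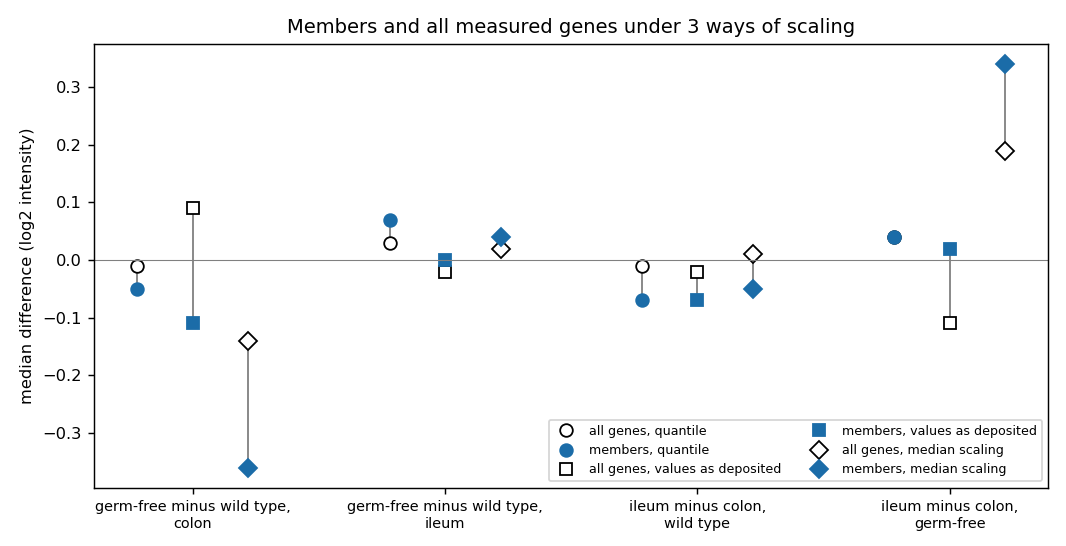
Median difference in log2 intensity over the members (filled) and over all measured genes (open), for the 4 differences and 3 scalings of the arrays (circles quantile normalization, squares values as deposited, diamonds median scaling). The 2 differences that involve the colon germ-free array move most with the scaling, to -0.36 and 0.34 for the members with median scaling; in the last difference both circles lie at 0.04.

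Between the gut regions, with quantile-normalized values, a smaller share of the members than of all genes was past 0.32. On the wild type arrays, 8 of 72 members read higher in ileum by 0.32 or more and 8 lower. The shares over all 12000 measured genes were 24.6% and 26.1%. Past 2-fold, by brightest probe sets, there was 1 member higher and 0 lower, against 6.04% and 5.93% of genes. On the germ-free arrays, 13 of 73 were higher and 3 lower, where all 11986 genes gave 29.8% and 24.9%. The counts past 2-fold were 3 higher and 0 lower, against 7.37% and 5.88%. The members' median was -0.07 with microbes and 0.04 without (all genes -0.01 and 0.04), but without microbes the members' median was 0.34 with median scaling (all genes 0.19). With that scaling 40 of 72 members were higher and 1 lower in ileum on the germ-free arrays, against 4695 and 2206 of 11923 genes, so the smaller share of members did not hold for higher values there. The RNA quality signs moved with region too. The difference in 18S was 0.43 with microbes and 0.84 without, in the 5-prime probe sets of Gapdh against its 3-prime ones 0.64 and 0.01, and in those of Actb 1.46 and 0.38. Their part in the regional values was not tested.

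Higher in ileum by 0.32 or more in both states were Ndufa4, Cox7a1, Cox8c, Ndufs4, Uqcrc1 and Atp5b. They are 6 of 72, where 15.7% of all genes were higher in both. Lower by as much in both were 3 members, Cox7c, Ndufa6 and Ndufv3, against 15.9% of genes.

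Ndufa4, a subunit of complex IV, was the member past 2-fold between regions in both states. It read 1893 and 1966 on the colon arrays and 3888 and 4030 on the ileum arrays, 2.05-fold (1.04 log2) higher in ileum in each state. The 4 arrays fell by region, with both ileum values above both colon values. The germ-free difference of Ndufa4 was 0.05 in each region, and -0.16 in colon with median scaling. Under the 3 scalings its regional difference lay between 0.99 and 1.3.

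Cox7a1 was higher in ileum by 0.51 with microbes and by 1.02 (2.03-fold) without, and Cox8c by 0.66 and 1.55 (2.93-fold). A dimmer probe set of Cox8c, close to the floor, read 78.9, 48.2, 58.2 and 93.2, higher in ileum without microbes only. Uqcrc1, a core protein of complex III, read 2207, 2014, 3003 and 2757, higher in ileum by 0.44 and 0.45. Its colon values were both below its ileum values.

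Ndufs4 was higher in ileum by 0.36 and 0.49, and its other bright probe set by 0.32 and 0.46. Atp5b was higher by 0.54 and 0.47. Just under the threshold, Atp5c1 was higher by 0.29 and 0.28, but its dimmer probe set was lower in ileum at -0.35 and -0.78.

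Ndufs8, an iron-sulfur subunit of complex I, was past 0.32 without microbes alone (0.20 and 0.34). All 6 of its probe sets read higher in ileum in both states. The largest of these differences was 0.59 with microbes and 0.57 without. Ndufa9, a subunit of the quinone module, read 2425, 2602, 3109 and 2862 (0.36 and 0.14).

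Among the members higher in colon, Ndufa6, an accessory subunit of complex I, read 6179, 6710, 4820 and 4526, lower in ileum at -0.36 and -0.57. Ndufv3, which sits on the NADH-binding module, read 6435, 5839, 4709 and 4650. Its difference was -0.45 with microbes and -0.33 without, and the latter was 0.00 with median scaling. Cox7c, from its dim probe set, was lower in ileum at -0.41 and -0.73.

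Ndufa12 read 6381, 5721, 4845 and 5890, lower in ileum with microbes (-0.40); without microbes its difference was 0.04. Ndufa1, Ndufc2 and Ndufs3 were also past 0.32 lower in ileum with microbes alone (-0.34, -0.34 and -0.33). Complex I as a whole had 6 of 32 members lower and 2 higher in ileum with microbes, and 2 lower and 3 higher without. Over all genes, 26.1% were lower and 24.6% higher with microbes, and 24.9% and 29.8% without, so none of these counts exceeded the background. The median of complex I was -0.12 and 0.02.

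**Figure D4:**
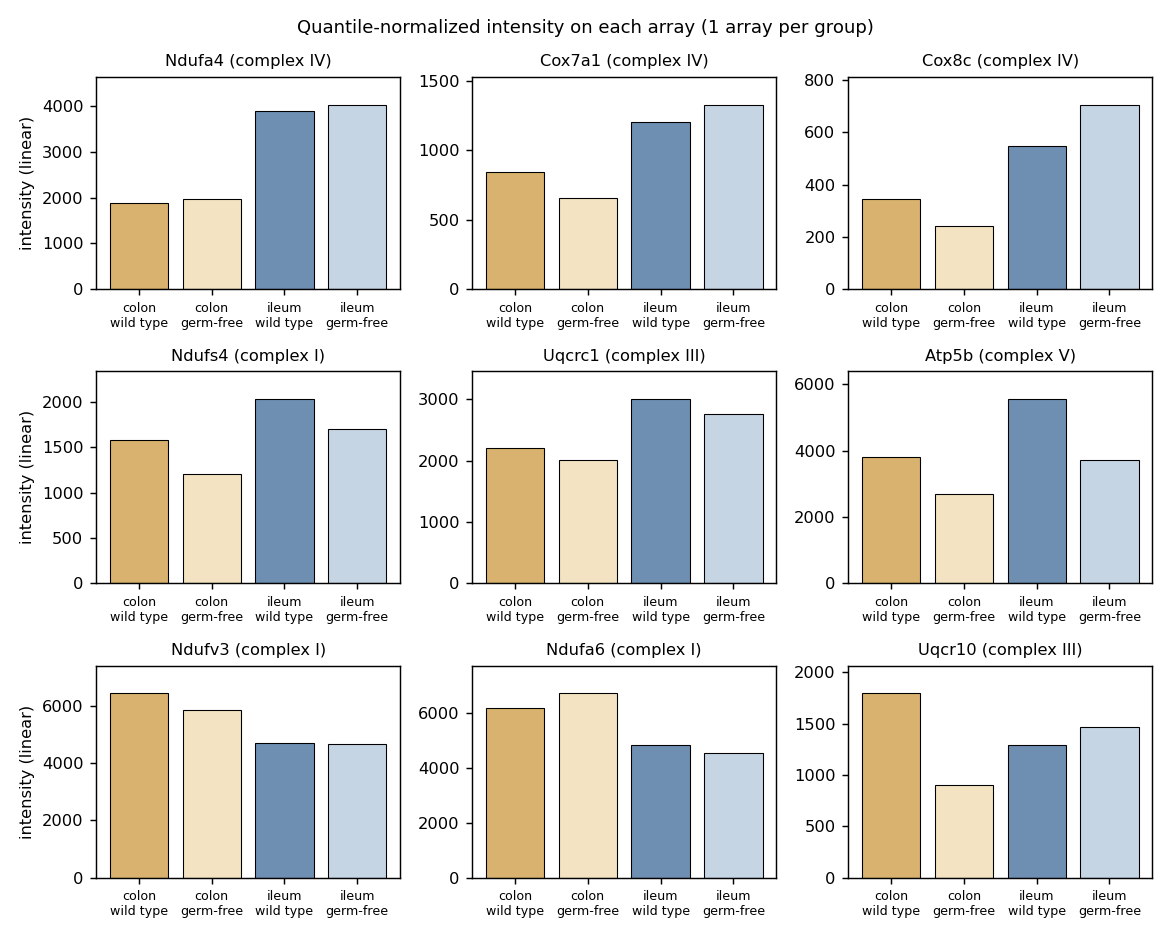
Quantile-normalized intensity (linear scale, bars from 0) of 9 member genes on each of the 4 arrays, 1 array per group, so there is no error bar. Ndufa4 is high on both ileum arrays and even within a region, Atp5b is low on the germ-free array of each region, and the colon germ-free bar of Uqcr10 (906) is the lowest of its 4.

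Uqcr10 was the 1 of 72 members past 0.32 in opposite directions between the states, which 4.29% of all genes were. It was lower in ileum at -0.48 with microbes and higher by 0.70 without. Its other bright probe sets gave -0.71 and -0.44, and -0.40 and 0.12, so the higher value without microbes came from the brightest probe set. Ndufa7 was the other member whose bright probe sets were past 0.32 in opposite directions in a comparison. Without microbes they gave 0.46, -0.40 and -0.06, and the mean of all its probe sets gave -0.12.

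Across 72 members the regional difference with microbes and that without had r = 0.637 and rho = 0.468. Without Ndufa4, Cox7a1 and Cox8c, r was 0.411 over 69 members. Over 7607 bright genes r was 0.847. These are correlations across genes on the same 4 arrays.

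**Figure D5:**
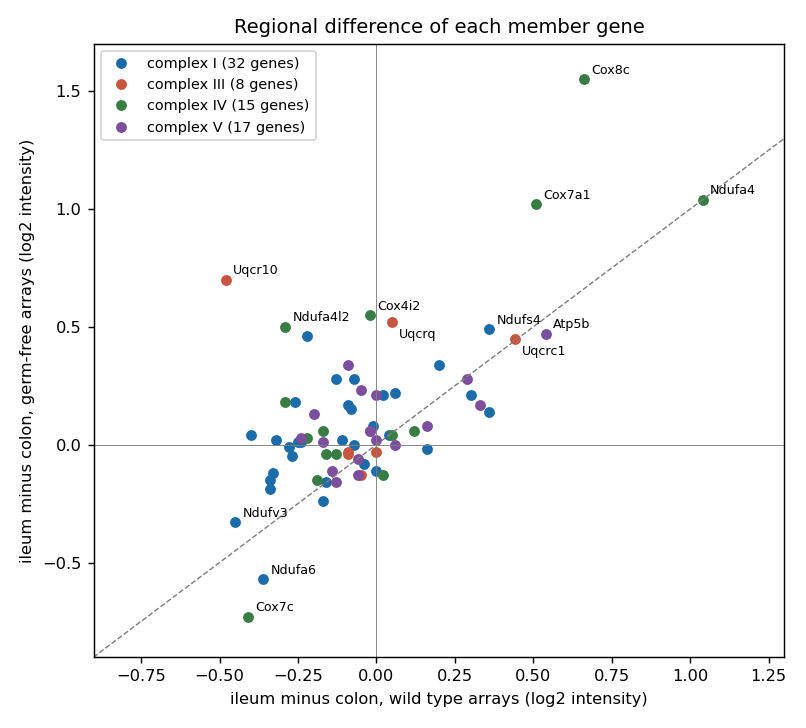
Difference in log2 intensity between ileum and colon for 72 member genes, on the wild type arrays (horizontal) and the germ-free arrays (vertical), coloured by complex; the dashed line marks equal differences. Most genes lie near 0 on both axes, Ndufa4 lies on the line at 1.04, Cox8c and Cox7a1 lie above it, and Uqcr10 has opposite signs.

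Other genes of oxidative phosphorylation were read from lists chosen by function. Of the 4 genes of complex II, succinate dehydrogenase, none was past 0.32 in colon or between regions. Sdhd, a membrane anchor, read 1351, 1196, 1600 and 1113, lower at -0.52 on the germ-free ileum array. Cytochrome c (Cycs: 12248, 12409, 12248 and 12822) and cytochrome c1 (Cyc1) stayed inside 0.32 in all 4 differences. Atpif1, the inhibitor of ATP synthase, read 4630, 4500, 7118 and 7144, higher in ileum by 0.62 and 0.67.

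Assembly factors build the complexes and are not subunits. Of 40 measured, 5 were higher by 0.32 or more and 11 lower on the germ-free colon array, and 6 higher and 0 lower in ileum. Over all genes the shares were 18.2% and 22.8% in colon and 11.6% and 10.9% in ileum, so the colon counts of the assembly factors were near the background. Ndufaf7, a complex I methyltransferase, read 597, 256, 318 and 456 (-1.22 and 0.52). Sco2, which delivers copper to complex IV, read 564, 1027, 866 and 1397, higher on both germ-free arrays by 0.86 and 0.69. Surf1, another complex IV assembly factor, read 2098, 2007, 1055 and 1033, lower in ileum at -0.99 and -0.96.

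Of the 8 measured carriers for adenine nucleotides, phosphate and protons, Slc25a4 stood furthest apart. This ADP/ATP exchanger read 408, 420, 2917 and 4143, which is 7.16-fold and 9.87-fold higher in ileum. The related exchanger Slc25a5 read 10847, 10458, 11695 and 11695. Vdac3, a pore of the outer membrane, read 9251, 8274, 4853 and 4341, lower in ileum at -0.93 in each state.

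Among 21 measured regulators of mitochondrial biogenesis, 2 were higher by 0.32 or more without microbes and 0 lower in each region, where 18.2% and 22.8% of all genes were in colon and 11.6% and 10.9% in ileum. The coactivators Ppargc1a (1907, 1695, 1014 and 973) and Ppargc1b (947, 1146, 353 and 459) were lower in ileum, at -0.91 and -0.80 and at -1.42 and -1.32. Tfam, which packs mitochondrial DNA, read 891, 895, 795 and 869. Gabpb1, a subunit of GABP, read 385, 352, 250 and 378 (0.60 in the germ-free ileum), and Nrf1 read 241, 234, 270 and 219.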

How the data were processed

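The members and the gene lists were chosen with earlier results of these data known. RNA was amplified in 2 rounds from 40 ng, per the labels, and hybridised to Affymetrix mouse arrays. The authors deposited 1 linear intensity per probe set and array; the design text names dCHIP2004 as their software, with options not given in the sources used here. Of 45101 probe sets, 64 controls were left out of the normalization. Medians of the brighter probe sets differed by 0.32 log2 between arrays (limit 0.25), so values were quantile-normalized, floored at the pooled median of 62.4 and put on the log2 scale. Symbols came from the platform annotation, and 10 probe sets that members share with other genes were not used. A gene was measured in a difference if at least 1 array was above the floor. The number of arrays (1 per group) limits the precision, and no p-value was computed. Named genes were, per complex and difference, the members furthest up and down, those past 2-fold or past 0.32 log2 in both regions, the restricted isoforms, members below the floor, and members with probe sets in opposite directions; others were chosen after their values were seen. Motifs were sought as exact letters in RefSeq promoter windows. The steps were tested on simulated data. Python 3.11.15, numpy 2.4.6, pandas 2.3.3 and matplotlib 3.10.9 were used. Alternatives were other scalings, floors, probe set choices and member sets.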

Additional observations from a re-analysis of the deposited data

Results flagged for a closer look

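Cox8c, the testis isoform of a complex IV subunit, was lower on the germ-free array in colon (-0.53) and higher in ileum (0.36). Ndufa4l2, a relative of the complex IV subunit Ndufa4, did the same from a dim probe set (-0.38 in colon and 0.42 in ileum). Both were noted because the germ-free difference was past 0.32 on the log2 scale in opposite directions in the regions. With 1 array per group the difference between regions was not tested.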

How the results depend on the processing

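Each result was recomputed under 2 other scalings, 3 other floors, 2 other probe set choices and without the non-subunits and restricted isoforms. The spread of 1 probe set over all genes, an SD divided by the square root of 2, was 0.29, 0.20, 0.29 and 0.31. The median over members moved by more than that in 1 of 32 recomputations, the colon germ-free median of -0.36 with median scaling. The germ-free regional median also went from 0.04 to 0.34 there, beyond the members' own spread of 0.21. Counts below are of members past a log2 difference of 0.32 unless 2-fold is named. With median scaling, 43 were lower in colon germ-free (1 past 2-fold) and 2 in ileum germ-free, and in the germ-free arrays 40 were higher and 1 lower in ileum than in colon, with Ndufv3 at 0.00. With the deposited values, 6 were lower in colon germ-free and 3 in ileum germ-free, and between the germ-free arrays 1 was 2-fold higher and 1 2-fold lower in ileum. Over all genes, the colon germ-free split of 2140 higher and 2679 lower became 3295 and 2063 with the deposited values and 1415 and 3815 with median scaling. That between the germ-free regions, 3572 and 2987, became 2545 and 4130, and 4695 and 2206. With the floor at the 25th percentile, 4 were higher in colon germ-free (1 past 2-fold), 3 lower in ileum germ-free and 6 lower in ileum than colon without microbes (1 past 2-fold). With no floor these were 4 (2 past 2-fold, and 1 lower past 2-fold), 4 (1) and 6 (2). With the floor at the 75th percentile, or without probe sets that can bind related transcripts, 0 were higher in colon germ-free, and in the latter 2 were lower in ileum germ-free. With the mean of probe sets, 2 were higher and 7 lower in colon germ-free, 6 higher in ileum germ-free and 5 lower in ileum without microbes, with Ndufs4 at 0.31 in colon germ-free and Ndufa7 at -0.12 between germ-free regions. Without the non-subunits and restricted isoforms, 1 was higher in ileum germ-free and 1 was 2-fold higher in ileum without microbes. Apart from fewer or more genes tested, the cause of these moves was not tested. Of single-gene values past 0.32, 3 changed sign. No replicate could be left out, and no paired analysis was possible because each group has 1 array.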

Other observations

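Other mitochondrial gene groups were read in the same way. Over all genes, 24.6% were higher in ileum by 0.32 log2 or more and 26.1% lower on the wild type arrays, and 29.8% and 24.9% on the germ-free arrays. Of 76 mitochondrial ribosomal protein genes, 19 were higher in ileum, near that background, and 6 lower on the wild type arrays, and 32 higher and 2 lower on the germ-free arrays, with medians of 0.11 and 0.22. On the germ-free colon array 18 of them were lower and 2 higher, where 22.8% and 18.2% of all genes were. Of 13 genes of the tricarboxylic acid cycle, 5 were higher and 2 lower in ileum with microbes, and 7 higher and 1 lower without. Sucla2, the ATP-forming subunit of succinyl-CoA synthetase, read 2650, 2822, 5362 and 5406 (wild type colon, germ-free colon, wild type ileum, germ-free ileum), whereas its GTP-forming counterpart Suclg2 read 4518, 4473, 2990 and 3017. Dlst, of the oxoglutarate dehydrogenase complex, read 1605, 1380, 2865 and 3056, and citrate synthase (Cs) read 6510, 7516, 8665 and 10458.

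Of 11 genes of the response to low oxygen, 7 were lower by 0.32 or more and 1 higher in ileum with microbes, and 6 lower and 1 higher without, against the shares of all genes given above. The glucose transporter Slc2a1 read 5345, 4727, 674 and 789, and Higd1a, a small protein known to bind complex IV, read 9041, 9016, 2918 and 3446. The gene higher in ileum was Egln3, a prolyl hydroxylase, at 436, 383, 1178 and 1133. Ldha, lactate dehydrogenase A, was even across the arrays (11360, 11218, 10951 and 10907).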
